A study of Mus musculus with 18 samples.

Results

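Of the 27396 accessible regions in the deposited table, 8757 (32%) lay inside the body of a protein-coding or long non-coding RNA (lncRNA) gene and more than 1 kb from both ends of every such gene. They were chosen by position alone, from the regions' mm10 coordinates and a RefSeq gene table of GRCm38.p6, which shares those coordinates, with mitochondrial rows left out. A further 13600 regions (49.6%) lay within 1 kb of a gene end and 5035 (18.4%) lay outside genes. The study measured chromatin accessibility by ATAC-seq, in which a transposase cuts and tags open DNA, in B and T cells taken from fresh frozen spleen sections of wild-type C57BL/6J mice. Sections were tagmented in place, cells were recognised by immunostaining, and nuclei were cut out by laser capture microdissection. The 18 libraries formed 4 groups, with 5 libraries of B patches, 5 of T patches, 4 of B 100 nuclei and 4 of T 100 nuclei. A patch library pooled 10 captured areas, about 1000 nuclei in all, whereas a 100-nuclei library pooled nuclei captured singly. Neither the markers used for staining nor the age and number of mice were given in the sources used here. Libraries of a group were technical replicates per the labels, and none was tied to an animal, so p-values here measure only the spread between these libraries.

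Open chromatin inside genes commonly marks enhancers, which are stretches bound by transcription factors that can raise transcription from a promoter at a distance, and also the starts of shorter transcripts of the same gene. In lymphocytes such sites tend to be used in a cell-type-specific way, while promoters at gene starts are often open in many cell types. B and T cells share much of their transcription machinery, but B cell identity is kept by factors such as Pax5 and Ebf1, and T cell identity by factors such as Tcf7 and Lef1. A region inside a gene is not thereby shown to act on that gene, and gene names below say only where a region lay.

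The regions occupied 4497 host genes. Of these, 2584 held 1 region and 315 held at least 5. Foxp1 held 24, Inpp4b 19, Akap13 16, Bach2 15, and Celf2 and Lpp 14 each. Protein-coding genes hosted 7835 regions, lncRNA genes alone hosted 922, and 416 regions lay in more than 1 gene. The median distance to the nearest gene end was 9.98 kb and the longest was 646.5 kb. Just inside the limit, the 734 tested regions 1 to 1.5 kb from an end included 8 that differed between B and T patches (1.09%). Just outside it, the 1417 tested regions inside genes and 0.5 to 1 kb from an end included 13 (0.917%). Regions inside genes were narrow, with a median width of 162 bp (quartiles 120 and 243 bp), against 283 bp at gene ends. Whether a region covered an exon or an intron was not analysed here.

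Among the regions that differed between B and T patches, 6 covered an annotated start of a transcript of their host gene other than the gene's outermost end. Sequence could be read for these, and the 250 bases before the start are shown for the 5 on the forward strand. They give the base content ahead of each annotated start. Whether these starts were used as promoters in B or T cells was not tested. Sequences are from RefSeq, build GRCm38.p6, forward strand, 5′ to 3′, and capitals mark bases that lay inside the accessible region. They run over chr11:108920099-108920348 for Axin2, chr12:80273187-80273436 for Gm29952, chr17:75465288-75465537 for Rasgrp3, chr15:84680748-84680997 for Prr5 and chr4:136180532-136180781 for E2f2. Whether the deposited starts count from 0 or 1 was not given in the sources used here, so a capital run may begin 1 base off.
Axin2: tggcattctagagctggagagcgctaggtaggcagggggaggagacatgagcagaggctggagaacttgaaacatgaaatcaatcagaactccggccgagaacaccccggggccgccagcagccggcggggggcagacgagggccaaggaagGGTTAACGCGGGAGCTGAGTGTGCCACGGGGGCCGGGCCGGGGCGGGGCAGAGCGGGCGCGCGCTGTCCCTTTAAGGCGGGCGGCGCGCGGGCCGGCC
Gm29952: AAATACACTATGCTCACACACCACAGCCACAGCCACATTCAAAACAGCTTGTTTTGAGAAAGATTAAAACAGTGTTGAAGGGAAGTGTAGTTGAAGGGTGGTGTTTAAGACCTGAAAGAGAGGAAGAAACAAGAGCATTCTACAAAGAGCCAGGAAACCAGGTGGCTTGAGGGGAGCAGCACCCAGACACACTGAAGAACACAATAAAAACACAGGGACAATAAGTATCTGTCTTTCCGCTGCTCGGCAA
Rasgrp3: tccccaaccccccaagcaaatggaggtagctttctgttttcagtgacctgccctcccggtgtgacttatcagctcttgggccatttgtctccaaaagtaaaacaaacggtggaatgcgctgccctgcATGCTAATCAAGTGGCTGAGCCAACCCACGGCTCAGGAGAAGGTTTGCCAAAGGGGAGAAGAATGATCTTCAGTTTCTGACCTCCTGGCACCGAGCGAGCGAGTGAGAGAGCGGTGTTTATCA
Prr5: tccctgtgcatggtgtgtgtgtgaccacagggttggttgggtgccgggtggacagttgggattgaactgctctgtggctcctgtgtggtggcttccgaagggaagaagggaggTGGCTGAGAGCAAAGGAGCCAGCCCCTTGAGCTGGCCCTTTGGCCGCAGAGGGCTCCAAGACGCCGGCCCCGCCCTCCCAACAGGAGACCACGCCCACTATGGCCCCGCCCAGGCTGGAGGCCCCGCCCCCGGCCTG
E2f2: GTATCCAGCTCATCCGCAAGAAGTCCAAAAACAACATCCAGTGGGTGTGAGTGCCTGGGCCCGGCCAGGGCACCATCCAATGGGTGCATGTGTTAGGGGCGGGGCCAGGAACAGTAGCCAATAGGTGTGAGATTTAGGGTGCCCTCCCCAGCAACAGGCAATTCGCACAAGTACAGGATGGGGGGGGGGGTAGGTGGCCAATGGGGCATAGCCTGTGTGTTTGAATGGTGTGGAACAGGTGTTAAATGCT
The Axin2 window was rich in G and C (69.2%, with 24 CpG sites) and so was that of Prr5 (66.8%, 10 CpG sites). Gm29952, a predicted lncRNA gene, had an A- and T-rich window with 44.4% G and C and 2 CpG sites. The median of all 32851 windows in the promoter table was 52.4% and 6 CpG sites. Rasgrp3 (52.8%, 8 CpG sites) and E2f2 (56.4%, 4 CpG sites) lay near that median. The letters ATCAAAG, bound by TCF and LEF factors, and TGTGGTT, bound by RUNX factors, were found on neither strand in any of the 5 windows. They occurred in 3.21% and 4.4% of all windows of that length. GAGGAAG, bound by PU.1, occurred once, in Gm29952, and in 10.6% of all windows.

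The 5 regions over these starts fell on both sides. The Axin2 region, chr11:108920251-108920479, had 4.05, 0, 4.6, 5.18 and 6.31 normalized CPM (counts scaled for library size as described with the processing) in the 5 B patch libraries, against 46.3, 27.7, 50.1, 49.4 and 19.1 in the 5 T patch libraries. Axin2 encodes a scaffold of the Wnt pathway. The Gm29952 region, chr12:80273094-80273515, had 5.25, 16.2, 3.97, 4.06 and 11.6 normalized CPM in B patches and 57.5, 94.4, 72.6, 56.6 and 93.4 in T patches. At both regions every B patch library lay below every T patch library. The log2 fold change of B over T was -3.23 (SE 0.73, adjusted p = 0.0229, edgeR quasi-likelihood test) at Axin2 and -3.20 (SE 0.48, adjusted p = 0.00241) at Gm29952. The Rasgrp3 region, chr17:75465415-75465742, had 29.4, 49.2, 33.7, 76.2 and 35 normalized CPM in B patches and 7.88, 8.84, 1.06, 0 and 8.89 in T patches. Rasgrp3 encodes an activator of Ras used downstream of the B cell receptor. Prr5, a gene of the mTORC2 complex, had a region with 44.7, 16.2, 73.6, 55.9 and 81.7 normalized CPM in B patches and 9.66, 14.1, 5.96, 0 and 9.56 in T patches (chr15:84680861-84681105). The region of E2f2, a cell cycle transcription factor, had 155.5, 83.0, 115.0, 98.3 and 83.3 normalized CPM in B patches and 61.5, 21.7, 46.9, 39.1 and 41.8 in T patches (chr4:136180341-136180853). At these 3 regions every B patch library lay above every T patch library. Their log2 fold changes were 3.08 at Rasgrp3 (SE 0.78, adjusted p = 0.0403, edgeR), 2.80 at Prr5 (SE 0.71, adjusted p = 0.0398) and 1.34 at E2f2 (SE 0.32, adjusted p = 0.0286). The Gm29952 call held with any 1 library left out. The Axin2 call did not pass without B patch library 1, 3 or 4 or T patch library 1, 3 or 4 (adjusted p 0.051 to 0.0826), nor E2f2 without B 1, 3 or 4 or T 3, 4 or 5 (0.0605 to 0.113). Prr5 did not pass without B 1, 3, 4 or 5 or T 1, 3 or 5 (0.0742 to 0.124), nor Rasgrp3 without any 1 library but T 2 and T 4 (0.0519 to 0.149). Under scaling by library size alone, Rasgrp3, Prr5 and E2f2 missed the threshold (adjusted p = 0.0563, 0.0577 and 0.053).

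Total counts per library spanned 319481 to 7343204. Without mitochondrial rows they spanned 1722193 to 6136842 in patches and 241786 to 715288 at 100 nuclei, so 1 read was worth 0.163 to 0.581 nuclear CPM in patches and 1.4 to 4.14 at 100 nuclei. Mitochondrial regions took 18.8 to 33.6% of counts in B patches, 16.1 to 23.1% in T patches, 29.4 to 45.8% in B 100 nuclei and 24.3 to 33.6% in T 100 nuclei. No molecular identifiers were stated. The floors given for libraries without reads cover counting error only, whereas the SDs and SEs include the spread between libraries.

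Regions inside genes took about the same share of nuclear counts in every group. B patches gave 21.1% ± 1.66 of their counts and T patches 20.7% ± 1.51 (SD, n = 5 each; exact permutation test, two-sided, p = 0.73, adjusted p = 0.811 over 10 such tests). At 100 nuclei it was 21.1% ± 0.389 in B libraries and 21.7% ± 1.86 in T libraries (SD, n = 4 each; exact p = 0.6, adjusted 0.75). Single libraries ran from 18.9% to 24%. Per length, regions inside genes held 102.7 to 130.1 nuclear CPM per kb, against 138.9 to 154 at gene ends.

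The share of regions read at all differed between the 2 kinds of capture. These differ both in the number of nuclei and in how nuclei were cut out, which cannot be told apart here. Thinned to the same 241786 nuclear counts, B patch libraries read 80.8, 65.2, 77.6, 77.5 and 81.4% of the 8757 regions, against 25.7, 26.8, 21.7 and 32.4% in B 100-nuclei libraries. T patch libraries read 77.2, 62.3, 77.6, 78.5 and 77.7%, against 29.9, 29.6, 10.9 and 9.74% in T 100-nuclei libraries. Every patch library lay above every 100-nuclei library. The difference in means was 49.8 percentage points in B and 54.6 in T (exact permutation test, p = 0.0159 each, the smallest this design gives; adjusted p = 0.0397). B and T libraries overlapped at both capture sizes (patches B 76.5% ± 6.55 and T 74.7% ± 6.96, SD, n = 5 each, exact p = 0.532, adjusted 0.75; 100 nuclei exact p = 0.371, adjusted 0.688). The B and T patch libraries numbered 2 were the lowest of their groups, and T 100-nuclei libraries 3 and 4 stood apart from the other two.

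Regions inside genes were read less often than gene ends within every library. In patches the mean was 75.6% of regions inside genes and 86.1% of gene ends, a difference of -10.5 points that lay between -13.1 and -8.05 in single libraries (10 of 10 negative; exact sign-flip permutation test, p = 0.00195, adjusted p = 0.0195). At 100 nuclei it was 23.3% and 37%, a difference of -13.7 points (8 of 8 negative, -18.2 to -5.5; exact permutation p = 0.00781, adjusted p = 0.0391). Regions inside genes were also narrower, and width was not matched. Without thinning, 3681 regions inside genes (42%) were read in all 10 patch libraries, against 62.5% of gene ends. Only 38 were read in all 8 libraries of 100 nuclei, 4283 in 1 or 2 of them and 1875 in none. A region read in a 100-nuclei library had a median of 19 to 79 reads, against 43 to 82 in patch libraries.

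**Figure D1:**
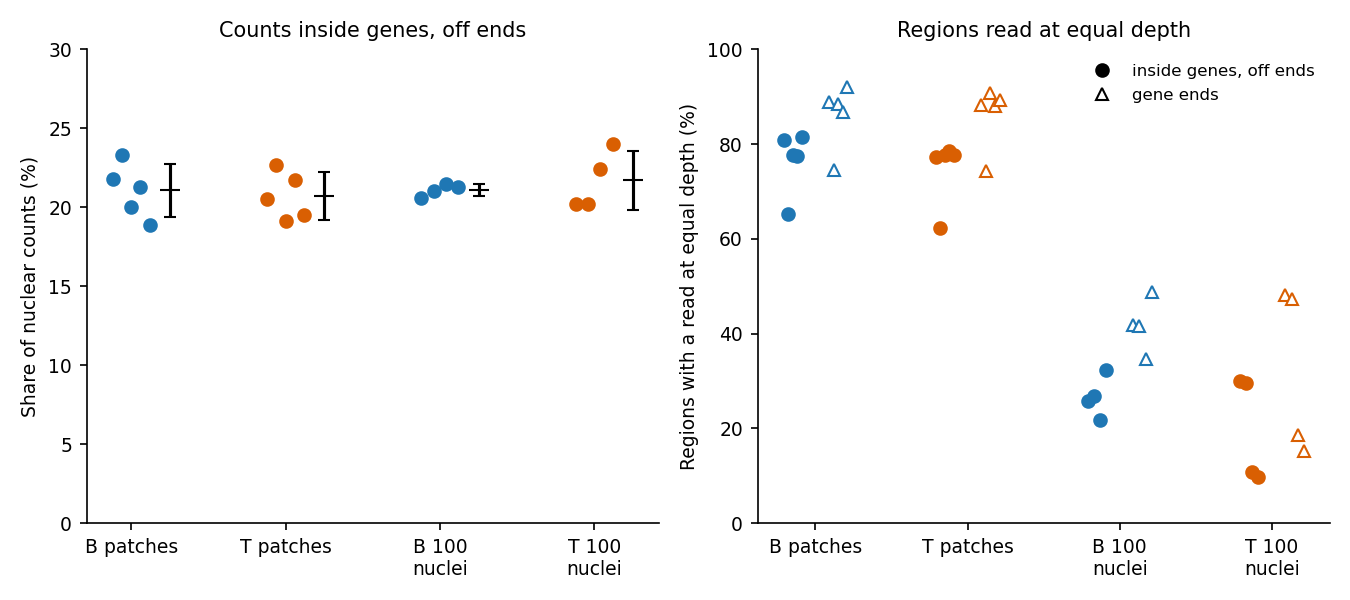
Left, share of nuclear counts (%) in regions inside genes for each library by group, with mean and SD beside the points. Right, share of regions (%) with a read after thinning to 241786 nuclear counts, for regions inside genes (filled circles) and gene ends (open triangles). Count shares lie between 18.9% and 24% in all 18 libraries, while read shares lie between 62.3% and 81.4% in patches and between 9.74% and 32.4% at 100 nuclei, below the gene ends of the same library.

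B and T patches differed at 284 of the 8139 regions inside genes that passed the filter on low counts (3.49%, edgeR quasi-likelihood test, adjusted p up to 0.05 over all 25712 regions tested). Over all tested regions the share was 2.27%. In 154 the signal was higher in B (1.22% over all regions in that direction) and in 130 lower in B (1.05%). The median log2 fold change of B over T was 2.81 among the higher and -3.45 among the lower ones. In the bulk of each capture, fewer cells with an open region and less opening per cell cannot be told apart. The other 618 regions did not pass the filter and were not tested. With no adjustment, 19% of tested regions inside genes had p under 0.05, against 12.7% of all tested. The normalized CPM of the B and T patch groups did not overlap at 1019 regions inside genes (12.5%; 8.03% over all tested), 560 higher in B (4.33% over all) and 459 lower in B (3.69%).

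The split between directions depended on the scaling. With library size alone, 103 regions were higher and 174 lower in B (37.2% higher), and the median log2 fold change of all tested regions was -0.19 in place of -0.03. With mitochondrial rows removed, 158 were higher and 121 lower. Leaving out any 1 library other than those numbered 2 gave 113 to 170 calls, the lowest without B patch library 1. Leaving out B 2 gave 319 calls, leaving out T 2 gave 312 and leaving out both, a choice made after seeing the data, gave 573, with 272 of the 284 among them. DESeq2 called 1043, with 281 of the 284 among them. In all 10 fits that each left out 1 library, 72 of the 284 stayed called, 33 higher and 39 lower in B.

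Set beside the 3.49% of regions inside genes, 112 of 13183 tested gene ends differed (0.85%) and 185 of 4386 tested regions outside genes (4.22%). These shares were not tested against each other, since neighbouring regions are not independent. Regions differ in signal between the classes, so they were also read within quartiles of abundance over all tested regions. From the lowest to the highest quartile, 0.686, 1.98, 6.36 and 8.09% of regions inside genes were called, against 0.183, 0.31, 1.17 and 1.2% of gene ends and 0.739, 2.5, 8.96 and 15.5% of regions outside genes. In each quartile the share inside genes lay between those of the other classes. Their median SE of the log2 fold change was 0.98, against 0.63 at gene ends.

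**Figure D2:**
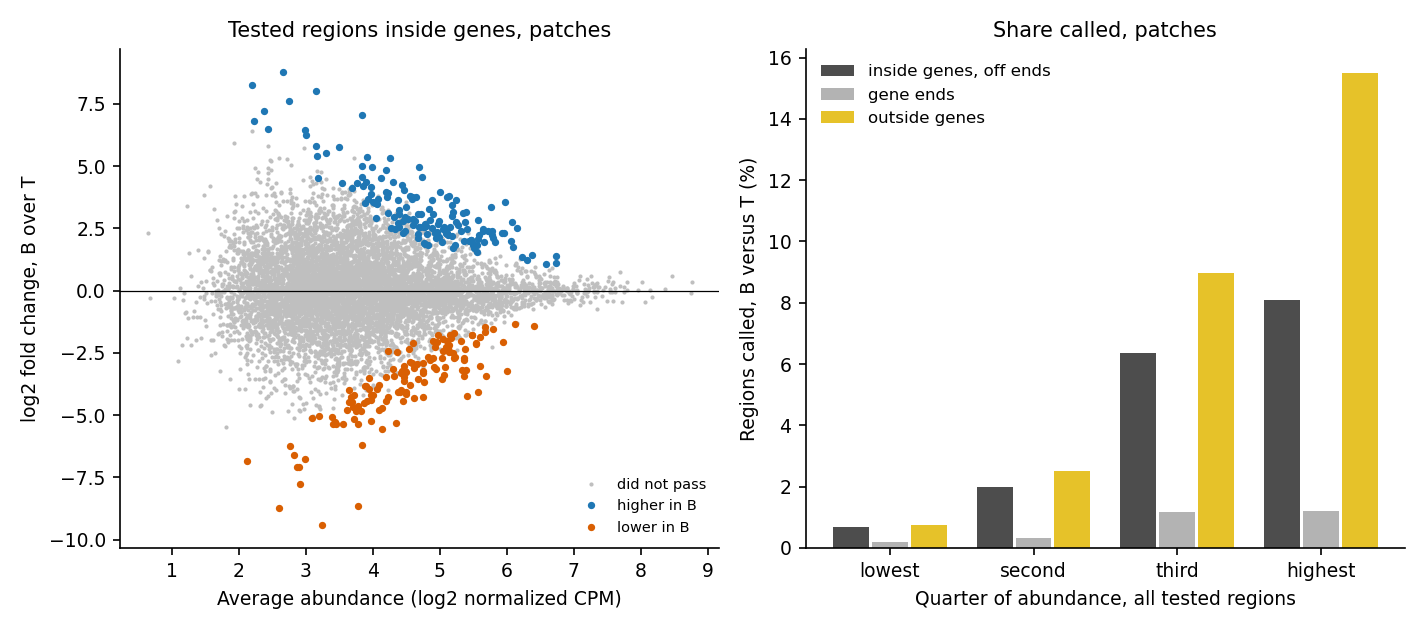
Left, log2 fold change of B over T patches against average abundance (log2 normalized CPM) for the 8139 tested regions inside genes, with 154 called higher in B (blue), 130 called lower in B (orange) and the rest grey. Right, share of regions called (%) in each quartile of abundance over all tested regions, with 8.09% inside genes, 1.2% at gene ends and 15.5% outside genes in the highest quartile.

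By distance from the nearest gene end, the share called was 2.77% at 1 to 5 kb, 3.72% at 5 to 20 kb, 4.15% at 20 to 50 kb and 3.73% beyond 50 kb. Wider regions were called more often, with 1.11% up to 150 bp, 4.14% above that up to 300 bp and 7.43% above 300 bp. Regions that covered an annotated transcript start were wide but seldom called. Of 713 tested, 6 were called (0.842%), although their median width was 366 bp. Of 5113 tested regions more than 1 kb from annotated starts, 200 were called (3.91%), with a median width of 152 bp. These starts were known for the 79.7% of regions whose host gene was in the promoter table. Regions in lncRNA genes alone were called in 4.94% of 830 tested, and those in protein-coding genes in 3.32% of 7309.

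A region inside a gene could differ while the ends of the same gene did not pass the test. The 284 called regions lay in 257 host genes. For 178 of them the host gene had a tested region at an end. For 12 of these an end region was called in the same direction. In Irgc1, 1 of the 12, another end region was called in the opposite direction. Of all 13183 tested gene ends, 0.85% were called in either direction, a share per end region and not per called inner region. Gene ends thus seldom passed at all, and an end that did not pass was not shown to be alike in B and T. Whether the inner and end regions of a gene differed in their fold changes was not tested.

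Surface receptors of B cells had 16 regions in 9 of 20 listed genes. Of these 15 were tested, 5 were higher in B (33.3%) and none was lower. Over all tested regions inside genes 1.89% were higher and 1.6% lower in B, and over all tested regions 1.22% and 1.05%, shares against which the counts of each group of genes below are to be read. Of these 5 calls, 2 held in all 10 fits that each left out 1 library. The median log2 fold change of the 15 was 2.29, and 14 were positive, against a median of -0.03 over all regions tested. Within Fcrl1, which encodes an Fc receptor-like protein of B cells, the leading region had 39.3, 60.2, 69.4, 40.1 and 36.0 normalized CPM in the B patch libraries and 2.54, 0, 1.59, 0.501 and 2.89 in the T patch libraries (chr3:87379939-87380225). Within Fcrla, a related gene of B cells, the region at chr1:170928510-170928881 had 82.1, 60.2, 76.9, 46.7 and 57.4 normalized CPM in B patches and 5.85, 0, 4.5, 8.77 and 3.33 in T patches. All B patch libraries lay far above all T patch libraries at both. The log2 fold change was 4.95 at Fcrl1 (SE 0.71, adjusted p = 0.00196) and 3.82 at Fcrla (SE 0.62, adjusted p = 0.00382, edgeR), and these were the 2 calls that held with any 1 library left out. Cd38, which encodes an enzyme on the B cell surface, had a region at chr5:43885150-43885399 with 45.7 ± 17.1 normalized CPM in B patches, against 9.4 ± 3.74 in T patches (n = 5 each, ± SD). Its log2 fold change was 2.27 (SE 0.51, edgeR adjusted p = 0.022), and it missed the threshold without B 4 or T 5 (adjusted p 0.0505 to 0.104). In Cd22, an inhibitory receptor beside the B cell receptor, the leading region had 23.5 ± 11.4 normalized CPM in B and 4.93 ± 6.14 in T patches and did not pass (log2 fold change 2.24, adjusted p = 0.324).

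Transcription factors of the B lineage had 62 tested regions, of which 4 were higher (6.45%) and 1 lower in B (1.61%), with a median log2 fold change of 1.56 (44 positive). Mef2c, a factor used in B cells, held 3 of the 4. Its first region, chr13:83524707-83524905, lay 20.8 kb from the gene's 5′ end and had 20.7, 23.1, 30.9, 33.4 and 29.1 normalized CPM in B patches and 0, 0, 0.132, 0.501 and 0.222 in T patches. The second, chr13:83571965-83572528, lay 68.2 kb in and had 163.3, 95.4, 123.2, 105.9 and 115.2 in B patches and 5.34, 10.4, 23.2, 37.8 and 28.9 in T patches. The third, chr13:83609044-83609512, lay 105.3 kb in, within Gm52043 as well, and had 82.1, 75.2, 74.0, 76.0 and 48.6 in B patches and 30.8, 6.03, 14.6, 2.51 and 9.12 in T patches. The nearest annotated transcript starts lay 1.05, 1.08 and 15.8 kb from these 3 regions, in that order. At all 3 the B patch libraries lay above the T patch libraries without overlap, and the first was all but unread in T. Log2 fold changes were 7.07 (SE 1.03, adjusted p = 0.00203), 2.50 (SE 0.42, adjusted p = 0.00427) and 2.49 (SE 0.52, adjusted p = 0.0141, edgeR), and all held with any 1 library left out. The fitted size of the first rests on near-absent T reads. All 9 tested regions of Mef2c had positive fold changes, with a median of 2.19.

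In Ebf1, which specifies the B lineage, all 9 tested regions were also positive (median 2.45). One passed, at chr11:44765023-44765431, some 147.1 kb from the 5′ end, with 49.7, 78.9, 61.7, 71.2 and 66.7 normalized CPM in B patches and 11.4, 2.81, 0.53, 0 and 14.9 in T patches. Its log2 fold change was 3.46 (SE 0.78, edgeR adjusted p = 0.0213), and it missed the threshold without B 4 (adjusted p = 0.0553). Pax5, the factor that keeps B cell identity, had 5 tested regions, 4 of them positive, and none passed. Its most abundant one had 64.2, 9.91, 67.7, 28.0 and 52.0 normalized CPM in B patches and 1.02, 37.0, 5.43, 13.3 and 37.1 in T patches, so the groups overlapped (log2 fold change 1.25, SE 0.69, adjusted p = 0.505).

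Bach2 ran the other way. It encodes a transcription repressor known from both B and T cells, and it stood in the B lineage list. Of its 15 tested regions 13 had negative fold changes of B over T, with a median of -2.03. The 1 that passed, chr4:32291424-32291807, lay 53.2 kb from the 5′ end and had 5.4, 4.4, 13.2, 1.13 and 4.65 normalized CPM in B patches, against 41.7, 67.5, 49.7, 83.7 and 57.8 in T patches. No B patch library reached any T patch library. Its log2 fold change was -3.37 (SE 0.56, edgeR adjusted p = 0.00427) and the call held with any 1 library left out.

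**Figure D3:**
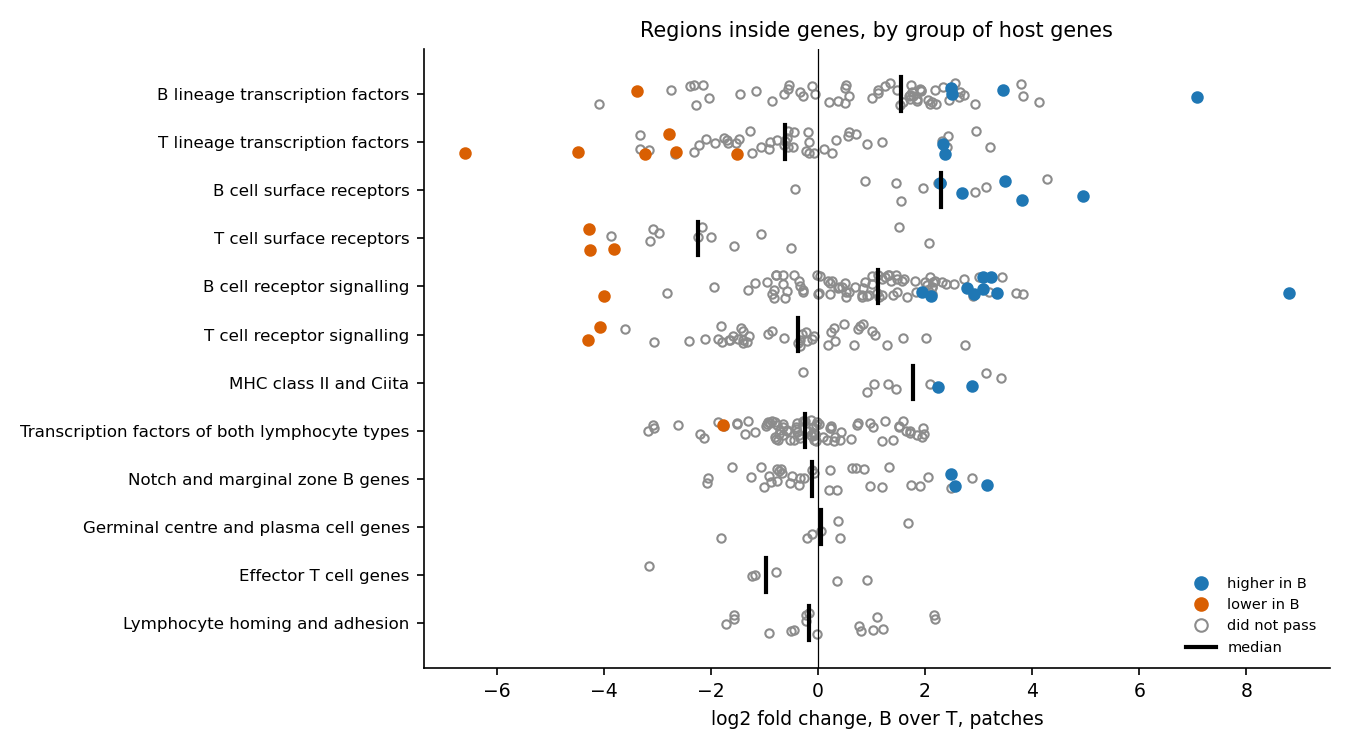
Log2 fold change of B over T patches for every tested region inside the genes of 12 groups, with regions called higher in B in blue, lower in B in orange and those that did not pass as open circles; the bar is the median. B cell surface receptors lie mostly to the right (median 2.29) and T cell surface receptors mostly to the left (median -2.23), while factors of both lymphocyte types centre near 0 (median -0.25).

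Transcription factors of the T lineage had 52 tested regions, of which 6 were lower (11.5%) and 2 higher in B (3.85%), with a median of -0.62. Lef1 and Tcf7, related factors that bind DNA downstream of Wnt signals and set up T cell identity, held 2 lower regions each. The first Lef1 region, chr3:131157440-131157779, had 5.4, 20.2, 11.3, 5.41 and 9.96 normalized CPM in B patches and 52.1, 111.7, 55.9, 68.9 and 65.4 in T patches. It lay 1.15 kb from an annotated transcript start. The first Tcf7 region, chr11:52268533-52268785, had 15.3, 2.94, 10.7, 6.99 and 14.6 in B patches and 66.6, 36.6, 69.3, 67.9 and 80.7 in T patches. All B patch libraries lay below all T patch libraries at both. The log2 fold change was -2.77 at Lef1 (SE 0.46, adjusted p = 0.00427) and -2.65 at Tcf7 (SE 0.48, adjusted p = 0.00602, edgeR), and both held with any 1 library left out. The second Tcf7 region lay 6.74 kb from the first, with a log2 fold change of -3.23 (edgeR adjusted p = 0.0213), and missed the threshold without B 3 or T 4 (adjusted p 0.0615 to 0.0634). The second Lef1 region, 42.2 kb from the first, had -4.47 (edgeR adjusted p = 0.0357) and missed it without B 3, 4 or 5 or T 1, 3, 4 or 5 (0.0519 to 0.111). All 6 tested regions of Lef1 and all 3 of Tcf7 were negative. Gata3 and Rora held the other 2 that were lower in B, and Tox and Ets1 the 2 that were higher. Among the 10 fits without 1 library, Gata3 was called in 6, Rora in 4 and Tox in 5.

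Ets1 encodes a transcription factor that is present in both T and B cells. Its leading region, chr9:32652046-32652602, had 141.8, 116.4, 70.0, 109.1 and 79.0 normalized CPM in B patches and 10.9, 27.7, 8.34, 38.1 and 18 in T patches. B patch libraries were higher throughout (log2 fold change 2.33, SE 0.41, edgeR adjusted p = 0.00532), also with any 1 library left out. The most abundant region of the same gene, chr9:32695667-32696264, had 144.4, 165.5, 131.1, 147.7 and 181.5 in B patches and 117.7, 92.8, 177.5, 146.1 and 107.2 in T patches. Here the groups overlapped (log2 fold change 0.26, SE 0.25, adjusted p = 0.808). Whether the fold changes of the 2 Ets1 regions differed from each other was not tested.

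T cell surface receptors had 15 tested regions, 3 of them lower in B (20%) and none higher, with a median of -2.23 (13 negative). Cd226, an activating receptor of T and NK cells, held 2 of the 3. Its leading region had 9.61, 0, 1.25, 1.8 and 2.16 normalized CPM in B patches and 55.2, 60.7, 32.4, 29.8 and 38.0 in T patches. Cd28, the costimulatory receptor of T cells, had 0.45, 0, 5.02, 0 and 3.32 in B patches and 10.7, 66.7, 31.9, 46.1 and 18.9 in T patches at chr1:60758311-60758508. The groups did not overlap at either region, though T values spread widely at Cd28. The log2 fold change was -3.81 at Cd226 (SE 0.78, adjusted p = 0.0131), which held with any 1 library left out. The second Cd226 region (log2 fold change -4.27, edgeR adjusted p = 0.0451) missed the threshold in 8 of the 10 fits without 1 library (adjusted p 0.0533 to 0.104). At Cd28 it was -4.25 (SE 1.0, edgeR adjusted p = 0.028) and missed the threshold without B 1 or 4 or T 2, 3 or 4 (adjusted p 0.0521 to 0.0743).

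Genes of B cell receptor signalling, whose proteins carry the signal from antigen to the nucleus, had 90 tested regions, 9 higher (10%) and 1 lower in B (1.11%), with a median of 1.12 (68 positive). Of these 10 calls, 2 held in all fits with 1 library left out. They were 1 of the 9 higher in B, in Vav2, and the 1 lower in B, in Cblb. In Vav2, which encodes a signalling protein downstream of antigen receptors, the region at chr2:27311653-27312077 had 110.3, 102.8, 79.7, 133.0 and 63.6 normalized CPM in B patches and 4.32, 0, 5.83, 20.8 and 16.7 in T patches. The lowest B library was above the highest T library (log2 fold change 3.34, SE 0.62, edgeR adjusted p = 0.00714). Rasgrp3 held 3 of the 9, including the region over a transcript start shown above, and all 8 of its tested regions were positive. Its other 2 called regions missed the threshold in 7 of those fits each (adjusted p 0.0631 to 0.0982 and 0.0535 to 0.108). At the first of these no T patch library had a read, and neither had B 4, so that the groups overlapped at 0. Genes of T cell receptor signalling had 45 tested regions, 2 lower (4.44%) and none higher in B, with a median of -0.38. Called in either direction, that 4.44% stood beside 3.49% of all tested regions inside genes. Both lay in adaptor genes whose proteins bind each other. In Fyb, the region at chr15:6601430-6601680 had 4.05, 0, 3.35, 0.451 and 3.15 normalized CPM in B patches and 45.3, 37.8, 40.1, 31.3 and 37.3 in T patches, a log2 fold change of -4.06 (SE 0.78, edgeR adjusted p = 0.00855) that held with any 1 library left out. In Skap1, the region at chr11:96467040-96467222 had 2.19 ± 4.11 normalized CPM in B patches, against 46.1 ± 25.9 in T patches (n = 5 each, ± SD; log2 fold change -4.30, SE 1.02, edgeR adjusted p = 0.0283). That call did not pass without any 1 library other than B 1 and B 2 (adjusted p 0.051 to 0.0714).

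Cblb and Pde4d each held called regions of both directions. Cblb encodes a ubiquitin ligase that restrains signalling from antigen receptors in both lineages. Its region at chr16:52038245-52038621, which lay 7.2 kb from the 5′ end, had 58.5, 28.6, 59.6, 73.5 and 26.2 normalized CPM in B patches and 3.81, 14.5, 12.4, 11.3 and 15.1 in T patches. Its region at chr16:52129543-52129902, which lay 98.5 kb in, had 1.5, 0, 0.627, 2.93 and 6.97 in B patches and 44.7, 62.7, 25.8, 34.8 and 30.9 in T patches. The gene thus had a region higher in every B patch library and, 90.9 kb further in, a region lower in every B patch library. The log2 fold change was 2.11 at the first (SE 0.51, adjusted p = 0.032) and -3.99 at the second (SE 0.81, adjusted p = 0.0117, edgeR). The first missed the threshold without B 1, 3 or 4 or T 1, 3, 4 or 5 (adjusted p 0.0519 to 0.12) and under scaling by library size alone (0.052), and the second held with any 1 library left out. Pde4d encodes a phosphodiesterase that breaks down cyclic AMP. Its region at chr13:109781491-109781819 had 28.5, 58.4, 24.5, 69.7 and 33.9 normalized CPM in B patches and 0, 2.01, 3.97, 3.01 and 6.22 in T patches. Its region at chr13:109837573-109837856, 55.8 kb away, had 0.45, 0, 2.09, 0 and 2.99 in B patches and 30.3, 27.3, 26.2, 43.6 and 33.6 in T patches. Log2 fold changes were 3.79 (SE 0.76, adjusted p = 0.0111) and -4.78 (SE 0.96, adjusted p = 0.0112, edgeR); the first missed the threshold without B 4 (adjusted p = 0.0524). Of the 25 genes with at least 2 called regions, 14 had all of them higher in B, 8 had all lower, and 3 (Cblb, Itgb3 and Pde4d) had both.

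**Figure D4:**
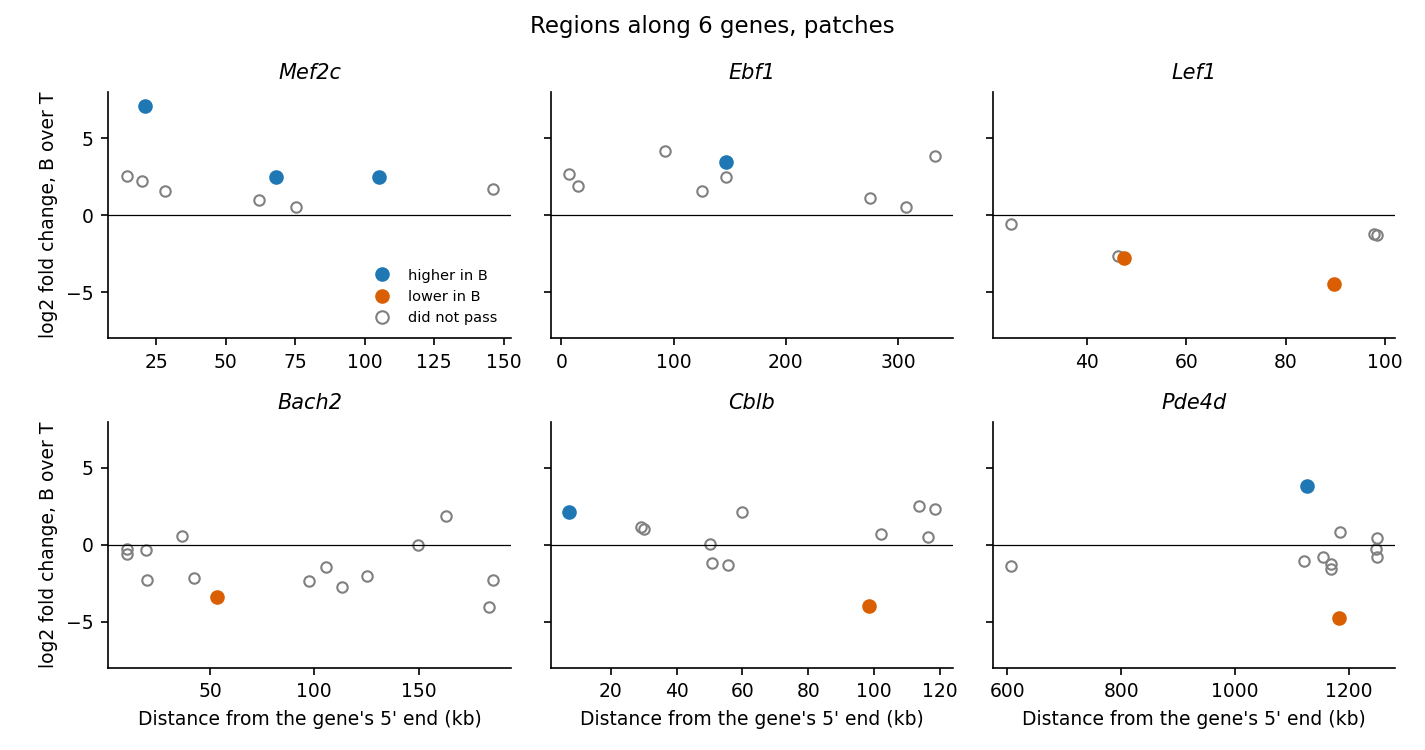
Log2 fold change of B over T patches for each tested region of 6 genes, against its distance (kb) from the gene's 5′ end; blue was called higher in B, orange lower in B, open circles did not pass. All 9 regions of Mef2c and all 9 of Ebf1 lie above 0, all 6 of Lef1 lie below 0, 13 of 15 of Bach2 lie below 0, and Cblb and Pde4d have a called region on each side.

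Genes outside the listed groups also held called regions. Those described here were picked from regions with abundance at or above the median and no overlap between groups, and they do not have the largest fitted changes, which reached -9.42 and 8.79 among all called regions. In Gtf2i, which encodes the transcription factor TFII-I, the region at chr5:134282613-134282988 had 8.56, 0, 2.51, 2.48 and 6.64 normalized CPM in B patches and 63.8, 65.9, 84.2, 93.0 and 93.4 in T patches, a log2 fold change of -4.25 (SE 0.61, edgeR adjusted p = 0.00196). A second Gtf2i region 16 kb away had -4.44 (edgeR adjusted p = 0.0155) and missed the threshold without T 4 (adjusted p = 0.0646). In Als2cl the region at chr9:110896638-110897035 had 13.2, 0, 0, 3.83 and 7.97 in B patches and 114.2, 41.8, 104.5, 97.5 and 85.4 in T patches. At both leading regions no B patch library exceeded 13.2 and no T patch library was below 41.8 normalized CPM. The Als2cl log2 fold change was -4.09 (SE 0.77, edgeR adjusted p = 0.00782). Ggact, Fam78a and Ptpn14 each held a region whose call also kept with any 1 library left out. Ggact had 0.643 ± 1.31 normalized CPM in B and 33.6 ± 3.5 in T patches and Fam78a had 2.49 ± 3.65 in B and 50.7 ± 17.8 in T patches. On the B side, Ptpn14, a tyrosine phosphatase gene, had 63.4 ± 20.8 normalized CPM in B and 4.72 ± 4.46 in T patches (SD, n = 5 each).

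Genes for presenting antigen on MHC class II had 10 tested regions, 2 of them higher in B (20%), with a median of 1.78 (9 positive). One was in Ciita, the master activator of MHC class II genes, in a stretch shared with LOC115488669, with 143.8, 66.4, 68.2, 76.9 and 95 normalized CPM in B patches and 2.8, 20.9, 14.4, 39.3 and 18.5 in T patches (chr16:10515907-10516543). B patch libraries were higher without overlap. The log2 fold change was 2.23 (SE 0.48, edgeR adjusted p = 0.0168), and it missed the threshold without B 1 or T 3 (adjusted p 0.0531 to 0.0685). The other was in Cd74, the invariant chain (log2 fold change 2.88, edgeR adjusted p = 0.0421), and missed it in 9 of the 10 fits that left out 1 library (adjusted p 0.0504 to 0.125). Notch pathway and marginal zone B cell genes had 37 tested regions, 3 higher in B (8.11%) and none lower, with a median of -0.10. Dtx1, which encodes the Notch regulator Deltex, held 2 of these; its leading one, chr5:120693961-120694243, had 96.1, 56.9, 79.7, 50.7 and 42.2 normalized CPM in B patches and 9.92, 2.41, 4.77, 15.8 and 3.56 in T patches. Its log2 fold change was 3.15 (SE 0.53, edgeR adjusted p = 0.00466), also past the threshold with any 1 library left out, and all 7 Dtx1 regions were positive. Its second called region missed the threshold in 7 of the 10 fits (adjusted p 0.053 to 0.132). Maml2, a Notch coactivator gene, held the other, which missed it in 6 (adjusted p 0.0576 to 0.115).

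Transcription factors used in both lymphocyte types had 81 tested regions, of which 1 passed (1.23%), with a median of -0.25. It lay in Elf1 and was lower in B, with 18.3, 7.34, 22.4, 16.9 and 34.7 normalized CPM in B patches and 80.6, 90.0, 52.0, 51.1 and 69.4 in T patches. Its log2 fold change was -1.77 (SE 0.42, edgeR adjusted p = 0.0267), and it missed the threshold without B 1, 3 or 4 or T 1 or 5 (adjusted p 0.0556 to 0.07). Foxp1, the gene with most regions, had 24 tested and 0 called, with log2 fold changes from -3.08 to 1.98 and a median of -0.42. Ptprc, which encodes CD45 of all leukocytes, had 2 tested regions, and the more abundant one had 33.5, 55.1, 67.3, 67.4 and 46.7 normalized CPM in B patches and 33.8, 40.6, 41.2, 48.1 and 43.4 in T patches, and the groups overlapped (log2 fold change 0.38, SE 0.34, adjusted p = 0.79). At the other every B patch library lay below every T patch library, and it did not pass either (log2 fold change -2.37, SE 1.12, edgeR adjusted p = 0.382). Runx1, a gene of the T lineage list and not of this one, missed the threshold at its most abundant region (log2 fold change -1.47, SE 0.42, edgeR adjusted p = 0.0728). Every B patch library lay below every T patch library there. DESeq2 called it (adjusted p = 0.00227), as did edgeR with scaling by library size alone (0.0475). With 1 library left out the edgeR adjusted p ran from 0.0322 to 0.229. Germinal centre and plasma cell genes (7 tested, median 0.06), effector T cell genes (6 tested, median -0.98) and homing and adhesion genes (17 tested, median -0.17) had 0 called regions each.

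The strongest regions per length did not separate the cell types. In Add3, which encodes a membrane skeleton protein, a region that covered a transcript start had 550.4, 309.8, 513.7, 574.4 and 485.8 normalized CPM in B patches and 291.9, 291.0, 492.8, 397.6 and 440.4 in T patches. Averaged over patch libraries it held 543.5 normalized CPM per kb, the most of all tested regions inside genes. B and T libraries overlapped (log2 fold change 0.35, SE 0.23, edgeR adjusted p = 0.627). In Rfx1 a region of 1163 bp, likewise over a start, had 415.2 ± 71.3 normalized CPM in B and 445.0 ± 125.7 in T patches (SD, n = 5 each; log2 fold change -0.10, SE 0.23, adjusted p = 0.956).

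**Figure D5:**
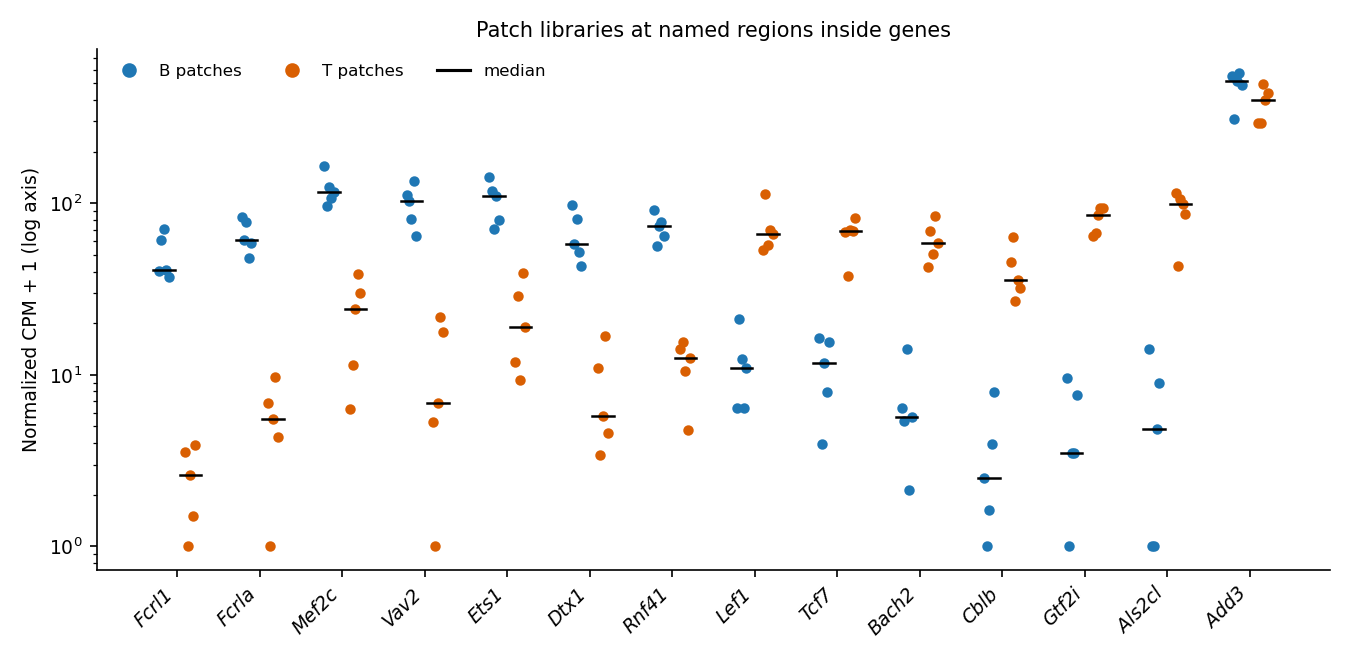
Normalized CPM plus 1 (log axis) of each patch library, B in blue and T in orange, with the median as a bar, at the leading region of 14 genes (for Mef2c the second and for Add3 the fifth by p). From Fcrl1 to Rnf41 all B libraries lie above all T libraries, from Lef1 to Als2cl all lie below, and at Add3 the 2 groups overlap.

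Regions at markers of B and T cells went with the labels of the captures. Regions inside the 9 B cell surface receptor genes summed to 0.0519 to 0.085% of nuclear counts in B patches and 0.0138 to 0.0213% in T patches. At 100 nuclei they summed to 0.0193 to 0.118% in B libraries and 0 to 0.0187% in T libraries, where 2 libraries had no read (3 counts would be 0.000728 and 0.00124%). Regions inside T cell surface receptor genes summed to 0.00932 to 0.0123% in B patches and 0.0258 to 0.0535% in T patches, and to 0.000611 to 0.0344% and 0.0502 to 0.0927% in B and T libraries of 100 nuclei. Markers of other cells offered few regions, and none of these was called. NK cell markers had regions in 2 of 7 genes, macrophage and monocyte markers in 2 of 11, dendritic cell markers in 2 of 7, neutrophil markers in 0 of 7, erythroid and megakaryocyte markers in 2 of 9, and stromal and endothelial markers in 3 of 15. Adgre1, Itgax and Pdgfrb, among others, held none, so that most defining markers could not be read here. The 7 stromal and endothelial regions summed to 0.016 to 0.021% in B patches and 0.0228 to 0.0327% in T patches, without overlap, a range that overlapped that of the T cell receptor regions in T patches. Their genes did not go one way. Pecam1 had 1955 counts over the B patch libraries and 3887 over the T patch libraries, whereas Cdh5 had 1128 and 153, and Vwf 703 and 561. Dendritic cell regions, in Flt3 and Zbtb46, summed to 0.0159 to 0.0274% in B and 0.0108 to 0.0189% in T patches. NK cell regions had 0.00306 to 0.00492% in B and 0.00363 to 0.00825% in T patches, macrophage regions 0.000712 to 0.00291% and 0.000864 to 0.00318%, and erythroid regions 0.0037 to 0.00837% and 0.00116 to 0.00908%. At 100 nuclei stromal and endothelial regions summed to 0.0165 to 0.0518% in B and 0.0252 to 0.0525% in T libraries. Each range overlapped that of the receptor regions of its own cell type. NK cell regions had 0 to 0.0246% in B and 0% in T libraries, and dendritic cell regions 0.00725 to 0.031% and 0 to 0.0256%. Macrophage regions had 0 to 0.00075% and 0%, and erythroid regions 0 to 0.0106% and 0 to 0.0227%. The part of these cells in the differences between B and T patches was not tested.

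At 100 nuclei none of the 8139 tested regions inside genes passed the edgeR test between B and T. Over all tested regions 0.0156% passed, namely the 4 mitochondrial ones. Among regions inside genes DESeq2 called 0 as well. The common dispersion, edgeR's measure of spread between libraries beyond counting error, was 8.54 at 100 nuclei and 0.775 in patches. The absence of calls there does not show that B and T were alike. With no adjustment 529 had p under 0.05 by edgeR (6.5%, against 5.5% over all tested regions) and 810 by DESeq2. The directions seen in patches could still be followed in these separate libraries. Of the 284 regions called in patches, 261 had reads at 100 nuclei, and 226 of these (86.6%) had a fold change of the same sign, 128 of 147 higher and 98 of 114 lower in B. Among regions not called in patches, 3986 of 6448 (61.8%) had the same sign. Together the regions higher in B patches took 0.891, 1.07, 0.943 and 1.19% of nuclear counts in the B libraries of 100 nuclei and 0.282, 0.287, 0.299 and 0.295% in the T libraries. Those lower in B patches took 0.111, 0.098, 0.19 and 0.0877% in B libraries and 0.69, 0.512, 0.697 and 0.767% in T libraries. Neither set overlapped between cell types. In the patch libraries that chose them, the first set took 0.8 to 1.23% in B and 0.159 to 0.231% in T, and the second 0.105 to 0.126% in B and 0.645 to 0.974% in T.

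Single regions at 100 nuclei had either many reads or none in a library. The lncRNA gene Gm12679 held the region with the smallest p there, chr4:44970109-44970365, with 87, 65, 6 and 173 counts in B libraries and 0 in all 4 T libraries (edgeR adjusted p = 0.356). In patches the same region had 106.0, 29.0, 42.7, 91.7 and 56.1 normalized CPM in B and 3.56, 10.9, 15.4, 5.26 and 12.7 in T libraries. There its log2 fold change was 2.76 (SE 0.51, edgeR adjusted p = 0.00704). That call held with any 1 library left out but missed the threshold with the replicate number as a block (edgeR adjusted p = 0.059). The region in Irf4, a transcription factor gene of activated B and T cells, had 54, 27, 210 and 50 counts in B libraries and 0 in all 4 T libraries (edgeR adjusted p = 0.356). In patches it was not called (log2 fold change 1.92, SE 0.64, edgeR adjusted p = 0.141), though DESeq2 called it (0.0282) and so did edgeR without T 2 (0.042). In both genes the reads at 100 nuclei came from B libraries alone. Rnf41, a ubiquitin ligase gene, had 0, 0, 180 and 85 counts in B libraries and 0 in T libraries, and in patches 71.6 ± 13.5 normalized CPM in B, against 10.5 ± 4.2 in T (± SD, n = 5 each). The Als2cl region had 0 counts in all 4 B libraries and 168, 182, 76 and 57 in T libraries, the direction it had in patches. The region in Ets1 that was higher in B patches had 37, 79, 136 and 11 counts in B libraries and 0 in the 4 T libraries. At Als2cl and Ets1 alike the cell type without reads was the lower one in patches. The Elf1 region, called lower in B patches, went the other way, with 0, 16, 41 and 46 counts in B libraries and 0 in the 4 T libraries. In Tmem189 counts were 0 in all 4 B libraries and 95, 136, 282 and 0 in T libraries, yet patches showed 49.7 ± 12.1 normalized CPM in B, against 50.9 ± 21.4 in T (± SD, n = 5 each; log2 fold change -0.03, SE 0.36, edgeR adjusted p = 0.992). The Bach2 region was read in a single 100-nuclei library, T 1, with 196 counts, and the Fyb region in a single one, B 3, with 82 counts, against its direction in patches.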

How the data were processed

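The authors deposited 1 table of raw counts, whole numbers of reads for 27396 regions in 18 libraries, with each column named for its library. The submitters' processing notes name build mm10 and the tools Bowtie2 2.4.5, MACS2 2.2.7.1, SAMtools 1.14, Picard, Trimmomatic 0.36, deepTools 3.5.2, R 4.1.0 and bcl2fastq 2.20. What each did, region calling, duplicate treatment and any transposase shift were not given in the sources used here. Duplicate reads that were kept would add to the counts of regions read in few nuclei.

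Regions were set against RefSeq gene bodies of GRCm38.p6. That gene table has no strand; strand and transcript starts came from a RefSeq promoter table. Regions were tested with edgeR 4.0.16 in R 4.3.3 (quasi-likelihood test, TMM scaling, filterByExpr with a minimum count of 10 over all 4 groups, Benjamini-Hochberg over the 25712 regions tested, threshold 0.05), separately for patches and 100 nuclei, with cell type as the single term. The SE of a log2 fold change is its size divided by the square root of the F statistic. DESeq2 1.42.0 was an alternative. Normalized CPM were taken over each library's tested regions, mitochondrial ones included, with TMM-scaled library sizes; nuclear CPM leave mitochondrial rows out and use no TMM. Shares of single libraries were compared by exact permutation tests in SciPy 1.17.1, adjusted over 10 tests; read shares were means of 10 seeded draws of 241786 nuclear counts. The edgeR procedure was also run on simulated data, and the outcome is not reported here.

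The regions and gene lists were chosen with earlier results of these data known. Genes were named by a rule: the 12 highest and 12 lowest fold changes among abundant called regions whose groups did not overlap, the 4 smallest p of each list, the genes with most regions, the 6 highest signals per kb, the 6 smallest p at 100 nuclei, and the most abundant region of 18 lymphocyte genes. The text prints a part of these, picked after their values were seen; regions over transcript starts, genes with several called regions, Gata3, Rora and Tox were also added then. Same-numbered B and T libraries hardly deviated together, and numbers were not used as pairs, although this check cannot decide pairing.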

Additional observations from a re-analysis of the deposited data

Results flagged for a closer look

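Each group of 4 or 5 libraries was checked for a single library far from the others at the read shares and at the regions named in the text. Chance marks about 1 in 20 such groups, and 8 of 116 were marked. Among read shares at equal depth, 1 B patch library stood apart with 65.2% of regions inside genes read, and 1 T patch library with 62.3%; without thinning the same T patch library was lowest of its group with 70.8%. Both carry the number 2 and have the lowest nuclear counts of their groups. Among regions, B patch library 5 was low at Mef2c region 3 (48.6 normalized CPM) and T patch library 2 was high at Lef1 region 1 (111.7 normalized CPM). B patch library 1 was high for its group at Cd226 region 1 (9.61 normalized CPM) and at Skap1 region 1 (9.46 normalized CPM). B patch library 5 was high for its group at Ggact region 1 (2.99 normalized CPM). None of these 5 regional values lay within the other cell type's range. That is no check on these libraries, since all 5 regions were called. Skap1 and Ggact also met a naming rule that asks for no overlap.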

How the results depend on the processing

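The count of 284 regions called between B and T patches was 1043 with DESeq2, 86 with the replicate number as a block, 113 to 319 with 1 library left out and 573 without both libraries numbered 2; scaling, filters, distance limits and gene types gave 253 to 297. Among the named regions followed through these alternatives, calls at Gm12679, Cd38, Ciita, Cd28, Elf1, Axin2 and Prr5 missed the threshold with the block. So did the Rasgrp3 region over a start, the second Lef1 and Gtf2i regions and the Cblb region higher in B (edgeR adjusted p 0.059 to 0.135 for all of these). Same-numbered libraries correlated at -0.00717 to 0.0332 in patches and -0.0138 to 0.0186 at 100 nuclei. Libraries of unlike number correlated at -0.0476 to 0.0738 and -0.0215 to 0.0223. Counting noise at regions with few reads keeps such values low, so this check cannot decide whether the numbers pair the samples. At 100 nuclei 0 were called under every alternative run, the block included. Patches exceeded 100 nuclei in read share by 48.2 to 52.7 points in B and 51.2 to 57.9 in T with 1 library left out, where the design can no longer pass after adjustment; the same holds for regions inside genes minus gene ends at 100 nuclei (-14.9 to -13).

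Values near 0 changed sign. B minus T count share in patches was -1.44 over all counts and -0.191 to 0.886 with 1 library left out; at 100 nuclei it was -1.1 to 0.177. Patches minus 100 nuclei was 2.51 in B and 1.51 in T over all counts, and -0.563 to 0.514 in B with 1 left out. B minus T read share in patches was -1.27 to 4.66. Tmem189 had log2 fold changes of 0.01 without mitochondrial rows, 0.03 with the block, 0.31 without both libraries numbered 2 and -0.16 to 0.24 with 1 left out, and Rfx1 -0.23 to 0.04. The causes were not tested. Over named regions and alternatives, 801 of 900 values kept direction and side of the threshold, 83 no longer passed, 9 newly passed and 7 changed sign. At equal depth patches read 76.5% of regions inside genes in B and 74.7% in T, against 26.7% and 20% at 100 nuclei. Thinning matched read counts, but duplicate treatment was not given, so the number of separate DNA fragments may not have been matched. The cause of this difference was not tested.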
